A study of Mus musculus with 185 samples.

Results

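The corticosteroid receptors and the genes through which their signal is fed back were described in the brain of fasted and fed mice. The group was set by name, with earlier results of these data known, and holds 10 of the 57010 genes in the count matrix. It covers the receptors Nr3c1 and Nr3c2, the co-chaperones Fkbp5 and Fkbp4, the enzyme Hsd11b1, and the receptor targets Tsc22d3, Sgk1, Zbtb16, Errfi1 and Hif3a. All 10 were found in the matrix and passed the filter on low counts in every comparison.

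The mice were male C57BL/6 J, an inbred laboratory strain, and were 8 weeks old. In a 16 h study, pair-housed mice stayed on chow, were switched to a high-fat diet (HFD) or were fasted, with 6 mice in each group. In a 24 h study, single-housed mice stayed on chow (9 mice) or were fasted (10 mice). RNA depleted of ribosomal RNA was sequenced from hypothalamus, hippocampus, superior colliculus, inferior colliculus and either frontal cortex (16 h) or zona incerta (24 h). Apart from the hypothalamus, the study's methods state that the hemisphere was picked at random at 16 h and was the left at 24 h. In the frontal cortex, the sample titles give the left for the lower mouse numbers of each diet and the right for the higher. The diets began in the morning in the 24 h study. In the 16 h study the start was in the afternoon by the study's methods. By the labelled hours of euthanasia and lengths of exposure, starts there were staggered, with some after the dark phase began. Study, housing, hemisphere, the hour of the start and 1 region thus changed together and cannot be told apart. The 16 h libraries were sequenced in a run of their own, and those of the 24 h study in 2 runs, 71 libraries in one and 24 (11 of chow and 13 of fasted mice, 0 to 2 per mouse) in a separate one on an SP flowcell. Per the study's methods, no RNA could be detected in that block of 24 and the study discarded it, and the submitters label all 24 as failing quality control. In the other runs they label 78 of 90 libraries as ok at 16 h (26 of 30 chow, 27 of 30 HFD, 25 of 30 fasted) and 66 of 71 at 24 h. The headings do not tie columns to libraries, so the libraries not labelled ok could not be taken out of the sums by name. The labels name no agent other than the diets, and hormone levels are not among the data used here.

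Corticosterone, the main glucocorticoid of the mouse, is released from the adrenal gland and binds both receptors in the brain. The mineralocorticoid receptor binds it with the higher affinity and is abundant in the hippocampus, whereas the glucocorticoid receptor is found in most cell types and is engaged when the hormone rises in stress, in food shortage or at its daily peak. The bound receptors enter the nucleus and bind DNA at paired copies of a short motif, and some of the genes they induce, Fkbp5 above all, lower the response of the receptor in turn.

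Each heading of the matrix named a sample of a mouse, from a single region, and was carried by 5 columns. These were read as the 5 libraries of that mouse, and which region each column holds was not given. The 5 columns of each mouse were therefore summed, and levels are given as counts per 1000000 counts of that sum (CPM), and no value below belongs to a single region. The sums held 57962237 to 161577364 counts per mouse, while single columns held 2994 to 65973281, and 177 of 185 columns had at least 1000000. A sum weights each region by its depth, and in bulk tissue fewer cells of a type and less RNA per cell cannot be told apart. The mice are separate animals, but mice of the 16 h study share cages, 2 to a cage. Mitochondrial genes took 3.78% to 4.98% of the counts of a mouse at 16 h and 8.57% to 16.7% at 24 h. None of the 10 lists of cell type and region markers had a gene at 0 throughout, and the summed level of 8 neuronal markers was 2960 to 4378 CPM over all mice.

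Of 2 mice, one column stood apart from the diet on the label. The submitters' notes state that the superior colliculus tubes of chow mouse 1423 and fasted mouse 1454 were exchanged, and the study's methods state that the metadata had been corrected for it. One column of chow mouse 1423, with 38141953 counts, held 40.0 CPM of Hif3a, against 1.46 to 6.72 CPM in its other 4 columns. The same column held 151 CPM of Sgk1 (20.0 to 68.2 in the other 4) and 64.6 CPM of Fkbp5 (8.15 to 42.1 in the other 4). One column of fasted mouse 1454, with 5309294 counts, held 5.27 CPM of Hif3a (22.4 to 38.1 in the other 4), 33.1 CPM of Sgk1 (118 to 271) and 23.5 CPM of Fkbp5 (59.6 to 88.7). In these genes both columns lay with the opposite diet. Some 24 h results, the fold changes of Fkbp5, Sgk1 and Hif3a among them, are therefore also given without these mice. Where this is not stated, as for the correlations, both mice are included.

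The DNA near the members was searched for the receptor motif because it is the known point of contact between receptor and target. The full motif was AGAACA, any 3 bases and TGTTCT, and a looser form was GNACA, any 3 bases and TGTNC, where N is any base. The looser form covers every full motif, and both read the same on either strand. Within 5 kb to either side of the annotated start, the full motif occurred near 27 of 21659 protein-coding genes scanned (0.125%), and among the members near Sgk1. The looser form occurred near 15.5% of the genes, and among the members near Fkbp5 and Sgk1. The stretches are shown because both genes rose in the 24 h fast, with the motif in capitals, read from the reference genome GRCm39. That of Sgk1 lies at chr10:21869550-21869664 on the plus strand in an intron of a longer Sgk1 transcript, with the motif 958 bases upstream of the start, and that of Fkbp5 lies at chr17:28703877-28703989 on the minus strand in an intron, with the motif 1219 bases downstream of the start.
Sgk1: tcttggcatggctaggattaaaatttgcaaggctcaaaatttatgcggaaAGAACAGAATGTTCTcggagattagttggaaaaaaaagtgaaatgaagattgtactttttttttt
Fkbp5: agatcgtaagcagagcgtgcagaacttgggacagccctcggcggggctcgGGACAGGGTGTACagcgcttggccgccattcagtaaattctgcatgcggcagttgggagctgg
In the 300 bases upstream of the start, no member held the looser form, which 0.397% of the genes did. The single motif arm TGTTCT occurred there, on either strand, in 17.7% of the genes and in 2 members, Hsd11b1 and Hif3a. The window of Hif3a, at chr7:16796353-16796652 on the minus strand, is shown because this gene had one of the largest fold changes of the group, and the arm in capitals reads AGAACA on the strand printed.
Hif3a: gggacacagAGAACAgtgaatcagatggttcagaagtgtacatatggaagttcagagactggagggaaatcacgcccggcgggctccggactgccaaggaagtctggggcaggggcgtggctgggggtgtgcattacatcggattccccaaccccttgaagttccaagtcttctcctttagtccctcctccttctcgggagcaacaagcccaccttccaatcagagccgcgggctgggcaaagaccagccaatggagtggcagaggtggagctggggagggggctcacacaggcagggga
These matches are letters in the reference, and binding of a receptor was not measured.

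Fasting for 24 h was compared with chow to see which members follow food deprivation. Of the 10 members, 7 passed the test (edgeR's quasi-likelihood test, adjusted p under 0.05), where 11.4% of 29011 genes did. The members were chosen with earlier results of these data known, so their counts beside those of all genes are no independent evidence. The 6 that rose were Sgk1, Hif3a, Fkbp5, Zbtb16, Errfi1 and Tsc22d3, and 5.78% of all genes tested rose. The receptor Nr3c1 fell, as did 5.62% of all genes, and Nr3c2, Fkbp4 and Hsd11b1 did not pass. The CPM of the fasted and chow mice did not overlap in 6 members, the ones that rose, against 1.3% of all genes. The median log2 fold change was 0.98 over the members and -0.00440 over all genes tested. Without mice 1423 and 1454, 7 members again passed. With the number of libraries of a mouse in the separate run as a covariate, the same 6 members rose, and Nr3c1 did not pass (adjusted p = 0.0519 by edgeR). With columns of at least 1000000 counts and 16000 genes seen in a draw of 500000 counts, which left out 11 chow and 12 fasted columns at 24 h, the same 6 rose, and Nr3c1 did not pass (adjusted p = 0.0613 by edgeR).

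**Figure D1:**
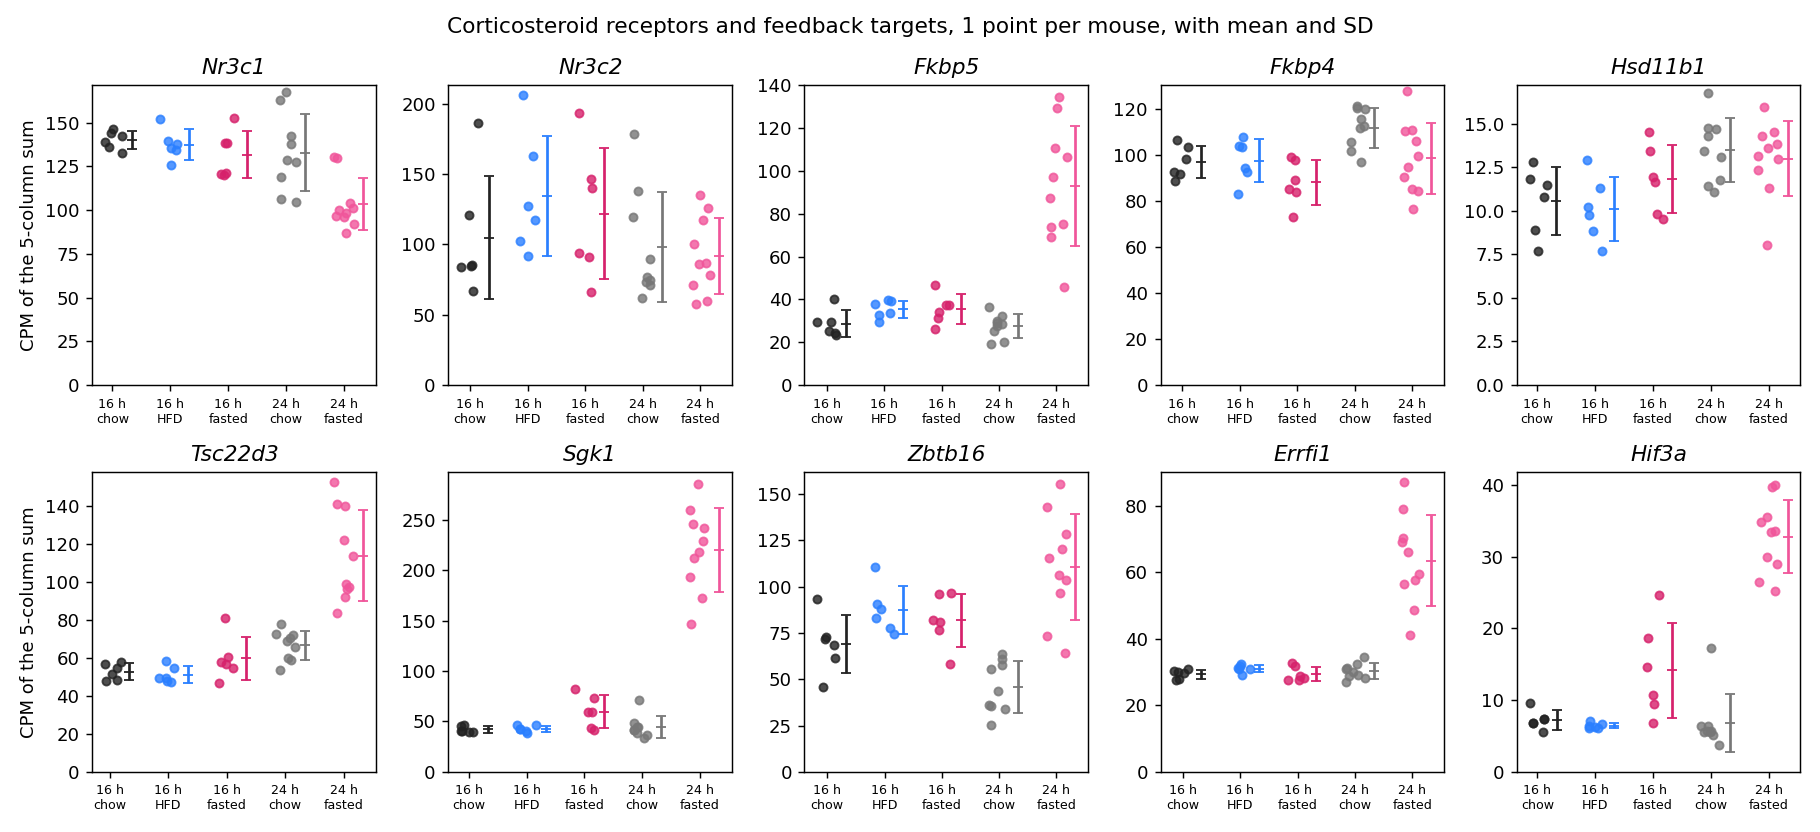
Level of each member in every mouse, as CPM of the sum over 5 columns, with 1 point per mouse and the mean and SD of each group beside the points. Fkbp5, Tsc22d3, Sgk1, Zbtb16, Errfi1 and Hif3a of the 24 h fasted mice lie above every 24 h chow mouse, while Nr3c2, Fkbp4 and Hsd11b1 overlap between all groups.

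Nr3c1, the glucocorticoid receptor, ranged from 104 to 168 CPM in the 24 h chow mice, with a median of 129, and from 86.8 to 130.2 CPM in the fasted mice, with a median of 99.4. The groups overlapped, and 2 of 10 fasted mice, 1425 and 1455, lay above the chow median. The log2 fold change was -0.31 ± 0.099 (SE, edgeR adjusted p = 0.0469, n = 10 fasted and 9 chow mice). This call stood close to the threshold. It was kept in 4 of 10 other settings, with adjusted p from 0.00216 to 0.0627 over those settings, and in 6 of 19 fits that left out 1 mouse, over which the log2 fold change ran from -0.35 to -0.24 and adjusted p from 0.0231 to 0.0933. The fits that kept it were those without chow mouse 1423, 1442, 1443 or 1452 and without fasted mouse 1425 or 1455, and each of the other 13 mice was needed for the call. In the 16 h study, Nr3c1 lay between 133 and 146 CPM on chow, 126 and 152 CPM on HFD and 119.8 and 152 CPM in the fasted mice, and all groups overlapped.

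Nr3c2, the mineralocorticoid receptor, was the member that varied most between columns of a mouse. The highest column of a mouse held a median of 4.12 times the median column of that mouse, and more than 2 times in 26 of 37 mice. In the sums of the 24 h mice it ran from 62.0 to 179 CPM on chow (median 76.8) and from 57.4 to 135 CPM in the fast (median 86.4), with a log2 fold change of -0.05 ± 0.21 (SE, edgeR adjusted p = 0.917, n = 10 and 9). The interval of 2 SE to either side, -0.47 to 0.37, leaves room for a change of either sign. At 16 h its levels lay between 66.8 and 186 CPM on chow, 92.0 and 206 CPM on HFD and 66.2 and 194 CPM in the fast.

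Per kb of annotated exon, Nr3c1 was read at 16.9 ± 2.83 CPM and Nr3c2 at 11.5 ± 4.58 CPM in 24 h chow mice (SD, n = 9). In the 24 h fasted mice they were read at 13.15 ± 1.88 and 10.7 ± 3.18 CPM per kb (SD, n = 10). The ratio of Nr3c1 to Nr3c2 counts within a mouse, which does not depend on scaling, ran from 0.758 to 2.703 on chow and from 0.729 to 2.27 in the 24 h fast. The mean log2 ratio differed by -0.29 between fasted and chow mice (two-sided exact permutation p = 0.271, adjusted over 8 tests 0.433). At 16 h it differed by -0.31 for fasting against chow (exact permutation p = 0.366), by -0.42 for HFD against chow (exact permutation p = 0.182) and by 0.11 for fasting against HFD (exact permutation p = 0.716). None of these passed, and the ratio overlapped between all groups.

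Fkbp5 encodes a co-chaperone that holds the receptor in a state of low hormone affinity and is itself induced by the receptor. It ran from 19.1 to 36.3 CPM in the 24 h chow mice (median 28.6) and from 45.9 to 134 CPM in the fasted mice (median 92.1). Every fasted mouse lay above every chow mouse, and mouse 1425 was the lowest fasted mouse. Its log2 fold change was 1.81 ± 0.18, or 3.50-fold (SE, edgeR adjusted p = 1.10e-06), and 1.91 ± 0.19 without mice 1423 and 1454. Fkbp4 encodes the related co-chaperone that favours hormone binding and transport of the receptor. Fkbp4 ran from 97.1 to 121 CPM on chow and from 76.7 to 128 CPM in the fast, with overlap and a log2 fold change of -0.12 ± 0.093 (SE, edgeR adjusted p = 0.467).

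The ratio of Fkbp5 to Fkbp4 counts thus moved with Fkbp5. On chow it ran from 0.165 to 0.344 (median 0.254), and in the 24 h fast from 0.414 to 1.49 (median 0.964), with no overlap. The mean log2 ratio was higher by 1.90 in the fasted mice, or 3.75-fold (two-sided exact permutation p = 2.17e-05, adjusted over 8 tests 0.000173, n = 10 and 9). Without mice 1423 and 1454 the difference was 2.00 (exact permutation p = 8.23e-05). At 16 h the ratio ran from 0.236 to 0.453 on chow, 0.283 to 0.477 on HFD and 0.311 to 0.639 in the fast. These groups overlapped, and the log2 difference was 0.46 for fasting against chow (exact permutation p = 0.0390, adjusted 0.156) and 0.32 for HFD against chow (exact permutation p = 0.0974, adjusted 0.260). With equal weight for each column, the first of these was 0.43 with an adjusted p of 0.0173 in the same exact permutation test over mice, which share cages. With the 3 cages of each diet as the unit it was 0.41 from cage sums (exact permutation p = 0.3) and 0.43 from cage means with equal weight per column (exact permutation p = 0.1), and 3 cages against 3 cannot go below 0.1.

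**Figure D2:**
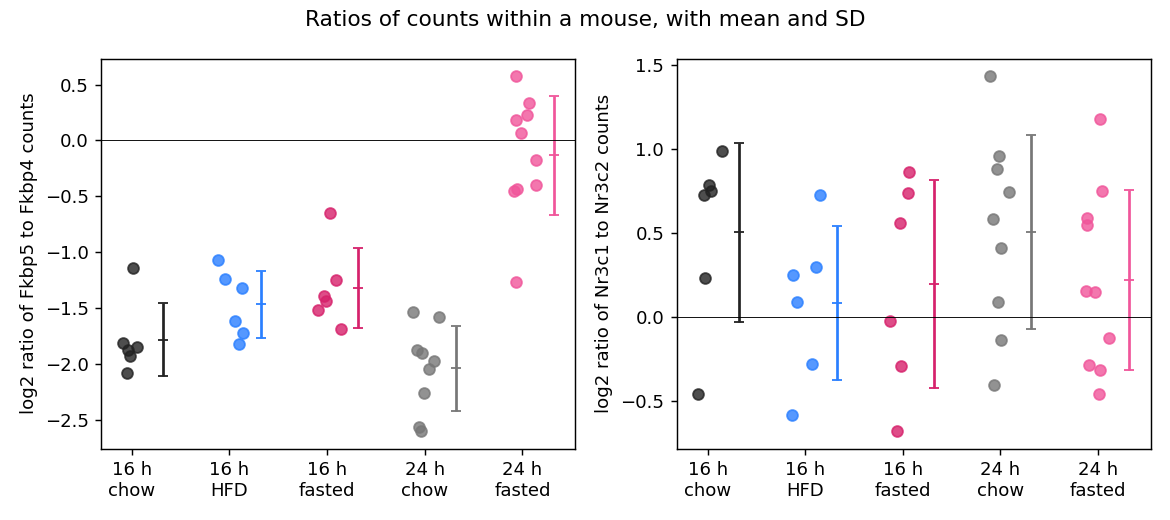
Log2 ratio of Fkbp5 to Fkbp4 counts (left) and of Nr3c1 to Nr3c2 counts (right) in each mouse, by group, with the mean and SD beside the points. The Fkbp5 to Fkbp4 ratio of the 24 h fasted mice, -1.27 to 0.57, lies above that of the 24 h chow mice, -2.60 to -1.54, while the receptor ratio overlaps between all groups.

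Hsd11b1, which regenerates active corticosterone from its inert keto form inside cells, ran from 11.1 to 16.8 CPM on chow and from 8.02 to 15.9 CPM in the 24 h fast. The groups overlapped, and the log2 fold change was -0.0031 ± 0.12 (SE, edgeR adjusted p = 0.992), with an interval of 2 SE from -0.24 to 0.24. At 16 h it lay between 7.67 and 14.5 CPM over the 3 diets.

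Sgk1, a kinase that regulates ion channels and transporters, and Hif3a had the largest log2 fold changes of the members at 24 h, and Hif3a came first of the pair without mouse 1423, without mice 1423 and 1454, and with limma and equal weight for each column. Sgk1 ran from 33.1 to 71.0 CPM on chow (median 41.8) and from 146 to 285 CPM in the fast (median 224). The highest chow mouse was 1423, the next one held 48.0 CPM, and the lowest fasted mouse was 1454. The log2 fold change was 2.36 ± 0.15, or 5.15-fold (SE, edgeR adjusted p = 5.17e-09, n = 10 and 9), and 2.53 ± 0.11 without these mice. Hif3a, an alpha subunit of the hypoxia-inducible factor family, ran from 3.73 to 17.3 CPM on chow (median 5.62) and from 25.2 to 40.0 CPM in the fast (median 33.5). The chow value of 17.3 CPM was that of mouse 1423, and the next highest was 6.44 CPM. Its log2 fold change was 2.31 ± 0.22, or 4.97-fold (SE, edgeR adjusted p = 6.95e-07), and 2.64 ± 0.12 without mice 1423 and 1454.

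Zbtb16, a zinc finger transcription factor, ran from 25.1 to 63.9 CPM on chow (median 43.7) and from 64.1 to 156 CPM in the 24 h fast (median 111). The highest chow mouse and the lowest fasted mouse lay next to each other, without overlap. Its log2 fold change was 1.33 ± 0.19 (SE, edgeR adjusted p = 7.48e-05). Errfi1, an inhibitor of the epidermal growth factor receptor family, ran from 27.0 to 34.6 CPM on chow (median 30.1) and from 41.1 to 87.2 CPM in the fast (median 62.8), with a log2 fold change of 1.13 ± 0.12 (SE, edgeR adjusted p = 2.68e-06). Tsc22d3, a leucine zipper protein that mediates anti-inflammatory actions of glucocorticoids, ran from 53.9 to 78.1 CPM on chow (median 68.8) and from 84.0 to 153 CPM in the fast (median 107), with a log2 fold change of 0.83 ± 0.13 (SE, edgeR adjusted p = 0.000182). Neither gene overlapped between the diets.

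Compared per kb of exon, the order of the levels differed between the diets of the 24 h study. On chow, Fkbp4 was highest at 29.8 ± 2.31 CPM per kb (SD, n = 9), followed by Nr3c1, Nr3c2, Tsc22d3 (10.8 ± 1.26) and Sgk1 (7.40 ± 1.83). Errfi1 (5.11 ± 0.390), Zbtb16 (4.88 ± 1.49), Hsd11b1 (2.699 ± 0.371), Fkbp5 (2.50 ± 0.493) and Hif3a (0.890 ± 0.523) came next. The neighbours Nr3c2 and Tsc22d3, Errfi1 and Zbtb16, and Hsd11b1 and Fkbp5 lay within 1 SD of each other. In the fast, Sgk1 was highest at 36.7 ± 6.93 CPM per kb (SD, n = 10), followed by Fkbp4 (26.3 ± 4.11) and Tsc22d3 (18.4 ± 3.88). Nr3c1, Zbtb16 (11.8 ± 3.04), Nr3c2, Errfi1 (10.7 ± 2.32), Fkbp5 (8.40 ± 2.53), Hif3a (4.28 ± 0.665) and Hsd11b1 (2.60 ± 0.430) followed, and each neighbouring pair from Nr3c1 down to Fkbp5 lay within 1 SD.

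The higher levels of Sgk1, Hif3a, Fkbp5, Errfi1 and Tsc22d3 in the 24 h fast were read in most columns. Without mice 1423 and 1454, and among columns of 1000000 counts or more in which 16000 or more genes would be seen in a draw of 500000 counts, 34 columns of fasted mice were set against 30 of chow mice. Of the 34, 33 lay above the highest chow column for Sgk1, 33 for Hif3a, 30 for Fkbp5, 28 for Errfi1 and 25 for Tsc22d3. For Zbtb16 the number was 10, and its highest column held more than 2 times the median column in 21 of 37 mice. For Nr3c1, Nr3c2, Fkbp4 and Hsd11b1 the number was 0. The columns of a mouse are not replicates, and these counts carry no test.

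**Figure D3:**
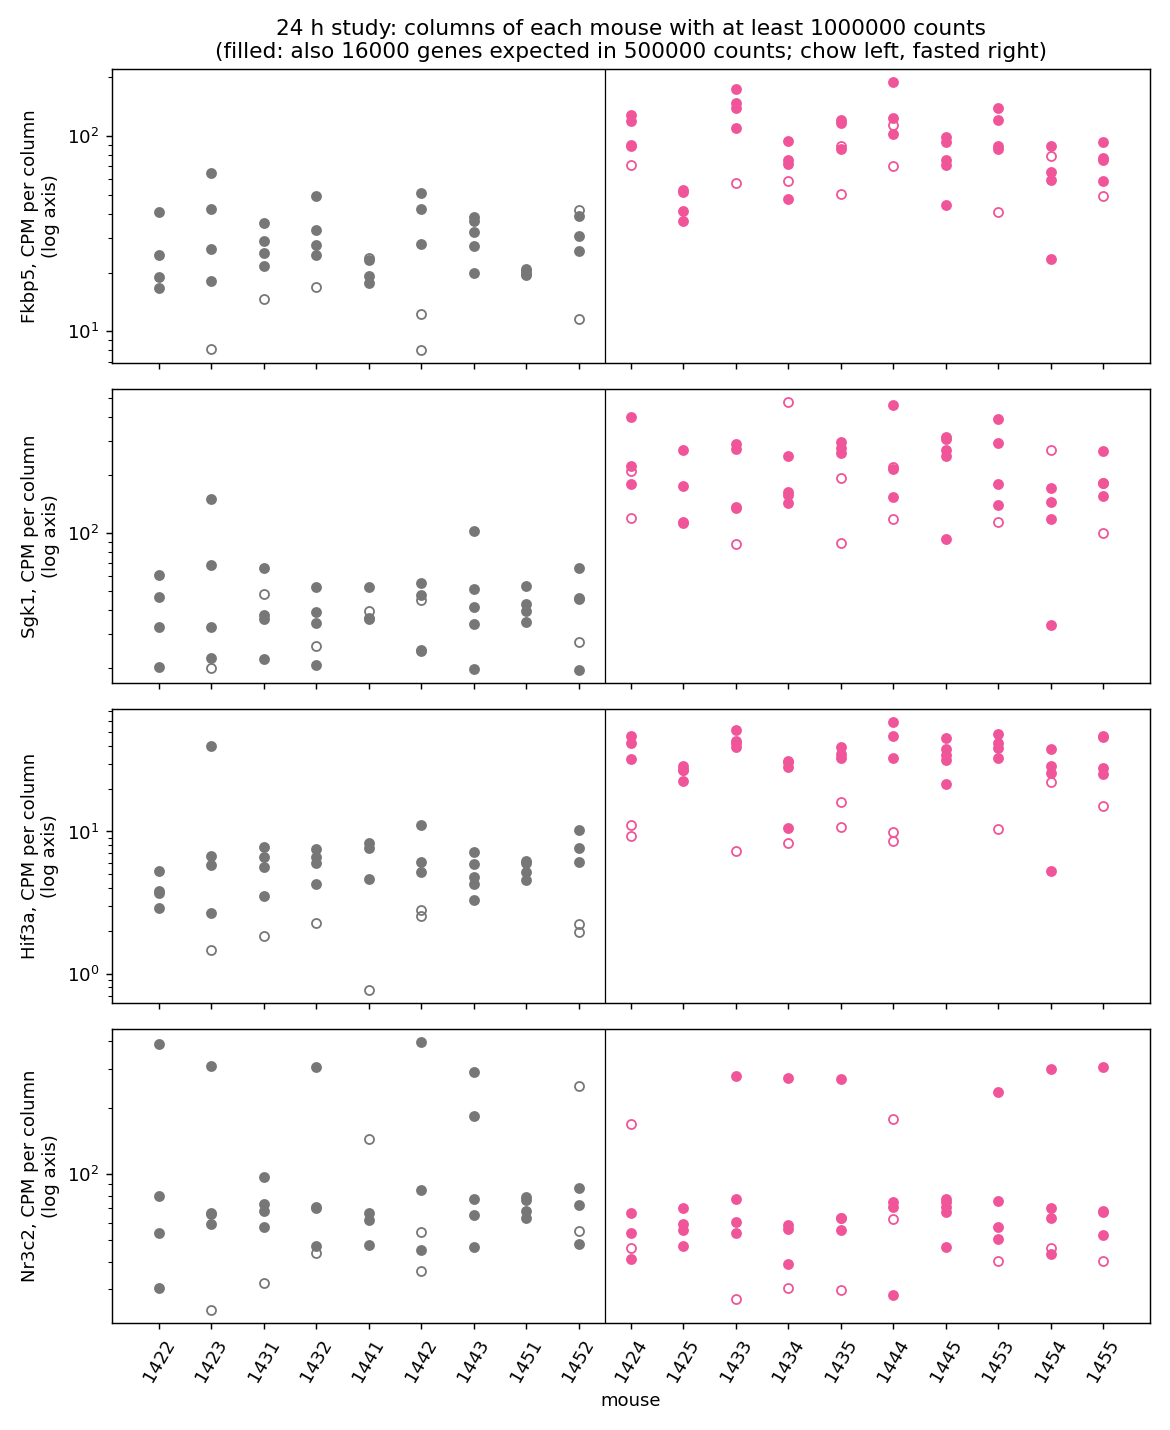
Level of Fkbp5, Sgk1, Hif3a and Nr3c2 in each column with at least 1000000 counts of the 24 h mice, in CPM on a log axis, with chow mice left of the line and fasted mice right. Filled points also pass the minimum of 16000 genes. One column of chow mouse 1423 (Hif3a 40.0 CPM) and one of fasted mouse 1454 (Hif3a 5.27 CPM) lie at the level of the opposite diet, and Nr3c2 has 1 column far above the rest in most mice.

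Markers of cell types and regions were read in the same comparison, where 5.62% of all genes fell and 5.78% rose by edgeR. At 24 h, 5 of 6 microglial markers fell, with a summed level of 88.3 to 128 CPM on chow and 66.8 to 116 CPM in the fast, and 4 of 6 endothelial markers fell (203 to 324 CPM on chow, 152 to 248 CPM in the fast). Of the pericyte and smooth muscle markers 3 of 6 fell (209.7 to 315 CPM and 138 to 219 CPM), and of the astrocyte markers 2 of 6 fell (3509 to 4461 CPM and 3515 to 5077 CPM). Of the oligodendrocyte markers 1 of 6 rose (4238 to 7457 CPM and 4070 to 7582 CPM), and 0 of 8 neuronal markers passed by edgeR. The choroid plexus markers ranged from 33.6 to 4121 CPM over the 24 h mice, and 0 of 6 passed. Of the hypothalamus markers 1 of 7 in the matrix rose, and 0 of 8 hippocampus markers and 0 of 6 blood cell markers passed. At 16 h, 1 endothelial marker was higher in fasted than in HFD mice, where 0.219% of all genes passed, and no other marker passed by edgeR. The part of these lists in the results of the members was not tested.

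Fasting for 16 h was compared with chow in pair-housed mice. No member passed edgeR's test at an adjusted p under 0.05, and 0% of 29746 genes did. At an unadjusted p under 0.05, 3 of 10 members and 7.62% of all genes passed. DESeq2 called 19 genes, Hif3a among them (adjusted p = 0.0194), and limma with equal weight for each column called 0. These fits take cage mates as separate mice. With cage sums, edgeR called 0 genes, with a lowest adjusted p of 0.775. The median log2 fold change was 0.22 over the members, of which 8 of 10 were positive, and -0.0034 over all genes tested. The members were chosen with earlier results known, so this too is no independent evidence.

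Hif3a ran from 5.53 to 9.66 CPM on chow (median 7.06), from 6.07 to 7.11 CPM on HFD (median 6.34) and from 6.87 to 24.7 CPM in the 16 h fast (median 12.6). The fasted mice overlapped the fed ones, and mice 11 and 12, which shared a cage, were highest at 24.7 and 18.7 CPM. The log2 fold change against chow was 0.99 ± 0.23 (SE, edgeR unadjusted p = 0.000344, adjusted p = 0.470, n = 6 and 6). Sgk1 ran from 39.3 to 46.2 CPM on chow (median 40.7), from 38.6 to 46.6 CPM on HFD (median 42.4) and from 41.3 to 82.5 CPM in the fast (median 59.3). Of the 6 fasted mice, 4 lay above every chow mouse. The log2 fold change was 0.53 ± 0.14 (SE, edgeR unadjusted p = 0.00096, adjusted p = 0.519).

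Fkbp5 ran from 23.2 to 40.1 CPM on chow (median 27.4) and from 26.1 to 46.6 CPM in the 16 h fast (median 35.9), with a log2 fold change of 0.34 ± 0.14 (SE, edgeR unadjusted p = 0.0248, adjusted p = 0.604). The highest chow mouse, mouse 5, lay above 5 of 6 fasted mice. The log2 fold changes of the other targets were 0.19 ± 0.093 for Tsc22d3, 0.27 ± 0.15 for Zbtb16 and 0.02 ± 0.050 for Errfi1 (SE). Those of the receptors were -0.07 ± 0.057 for Nr3c1 and 0.25 ± 0.27 for Nr3c2, those of Fkbp4 and Hsd11b1 were -0.12 ± 0.067 and 0.18 ± 0.14, and all 7 had adjusted p above 0.6 by edgeR.

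HFD for 16 h was compared with the same 6 chow mice, so the comparisons share their controls. No member passed, where 0% of 29746 genes did by edgeR, and at an unadjusted p under 0.05 the counts were 3 of 10 members and 9.8% of all genes. DESeq2 called 5 genes, with no member among them, and limma called 0. Zbtb16 ran from 45.6 to 93.1 CPM on chow and from 74.3 to 110 CPM on HFD, with a log2 fold change of 0.37 ± 0.15 (SE, edgeR unadjusted p = 0.0196, adjusted p = 0.503). Fkbp5 ran from 29.3 to 39.6 CPM on HFD, with a log2 fold change of 0.34 ± 0.14 (unadjusted p = 0.0253, adjusted p = 0.507 by edgeR). Errfi1 ran from 27.6 to 30.9 CPM on chow and from 29.2 to 32.3 CPM on HFD, with a log2 fold change of 0.11 ± 0.050 (unadjusted p = 0.0426, adjusted p = 0.508 by edgeR). All 3 overlapped between HFD and chow, and the 6 HFD mice lay above the chow median in Zbtb16 and Fkbp5.

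Fasting was also set against HFD at 16 h. Hif3a passed, where 0.219% of 29746 genes did by edgeR, with a log2 fold change of 1.13 ± 0.23 (SE, edgeR adjusted p = 0.0462). Of the 6 fasted mice, 5 lay above every HFD mouse. The call was lost when total counts alone set the scale (adjusted p = 0.0515), without the filter on low counts (0.0609), with cages as the unit (0.411), and in 9 of 12 fits without 1 mouse, over which adjusted p ran from 0.0130 to 0.126. It was kept without fasted mouse 7, 8 or 9, and lost without fasted mouse 10, 11 or 12 or any 1 HFD mouse. Sgk1 had a log2 fold change of 0.48 ± 0.14 (SE, edgeR adjusted p = 0.160), and Fkbp5 one of 0.0015 ± 0.14 (adjusted p = 0.999).

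**Figure D4:**
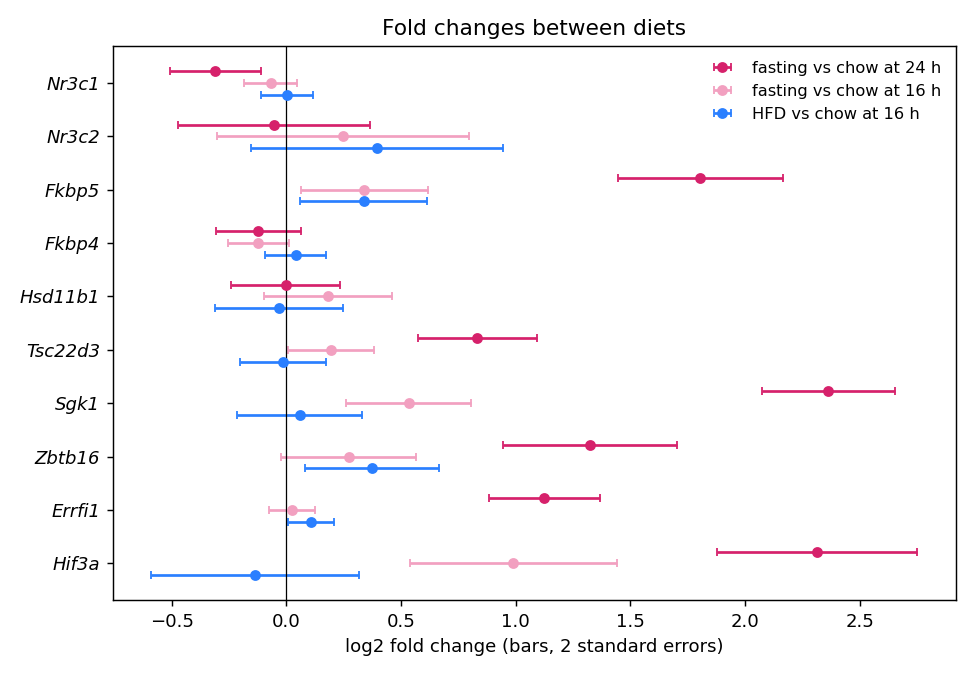
Log2 fold change of each member for fasting against chow at 24 h and at 16 h and for HFD against chow at 16 h, with bars of 2 standard errors to either side. At 24 h the bars of Fkbp5, Tsc22d3, Sgk1, Zbtb16, Errfi1 and Hif3a lie above 0 and that of Nr3c1 below it, and at 16 h the estimates run from -0.14 to 0.99.

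The difference between the fasting effect at 24 h and that at 16 h was tested in 1 model over all 37 mice. Of the 10 members, 5 passed, where 1.7% of 30849 genes did, and all 5 had the larger fasting effect at 24 h, as did 0.956% of all genes. The members were chosen with earlier results known, so this count too is no independent evidence. They were Sgk1 with a log2 difference of 1.83 ± 0.21 (edgeR adjusted p = 1.13e-06), Fkbp5 with 1.47 ± 0.25 (0.000471), Hif3a with 1.33 ± 0.32 (0.0214), Errfi1 with 1.10 ± 0.15 (2.64e-05) and Zbtb16 with 1.06 ± 0.26 (0.0257). Tsc22d3 had 0.64 ± 0.18 (edgeR adjusted p = 0.0562) and passed without mice 1423 and 1454 (0.70 ± 0.18, adjusted p = 0.0225). The receptors, Fkbp4 and Hsd11b1 did not pass. Body weight changed by -21.4% to -17.1% in the 24 h fast and by -7.52% to -1.30% in the 16 h fast. Duration, housing, hemisphere, the hour of the start and the fifth region cannot be told apart here. The sequencing runs also differed between the studies, with no run shared, so their part in this difference cannot be told apart either.

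Other genes of the pathway were taken from lists chosen with earlier results of these data known, so their counts are no independent evidence of direction. Of 24 other targets of the receptors, 24 rose at 24 h by edgeR, where 5.78% of all genes did, with log2 fold changes from 0.37 to 3.71 and a median of 1.23. The largest were those of Cdkn1a, an inhibitor of the cell cycle (13.1-fold, 3.34 to 20.2 CPM on chow and 36.8 to 129 CPM in the fast), Lcn2, a secreted carrier of iron chelates (6.95-fold, 0.0802 to 0.417 CPM and 0.420 to 2.74 CPM), and Arrdc2, an arrestin domain protein (4.91-fold, 7.57 to 15.9 CPM and 32.4 to 58.9 CPM). Of these genes 24 rose without mice 1423 and 1454, and 23 when total counts alone set the scale. At 16 h, 0 of 24 passed by edgeR in either comparison with chow, 10 had an unadjusted p under 0.05 for fasting (7.62% of all genes) and 2 for HFD (9.8%), and 21 were positive for fasting with a median log2 fold change of 0.19. DESeq2 called 1 of the 24 for fasting against chow, Map3k6, which was higher in the fast, and 0 for HFD against chow. In the test of the difference between studies 19 of 24 passed with the larger effect at 24 h (0.956% of all genes), and the others were Bcl6, Cebpd, Gjb6, Mt2 and Slc19a3.

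The partners of the receptors were set beside all genes at 24 h. Of these, 11.4% passed by edgeR, and 7033 of 29011 had an unadjusted p under 0.05. Of 12 genes of the chaperone complex that folds the receptors, such as Hsp90aa1 and Hsp90ab1, 0 passed at 24 h by edgeR, with log2 fold changes from -0.10 to 0.16 and 1 unadjusted p under 0.05. Of 10 co-regulators of transcription, such as Ncoa1 and Ncor1, 0 passed, with log2 fold changes from -0.0010 to 0.15 and 0 unadjusted p under 0.05. Of 13 stress axis peptides and receptors, 10 were tested at 24 h and 0 passed, with log2 fold changes from -0.41 to 1.20 and 3 unadjusted p under 0.05. Of 10 genes of steroid handling, 7 were tested and 1 passed: Akr1c14, an enzyme that reduces steroid hormones, fell to 0.412-fold (log2 fold change -1.28 ± 0.16, SE, edgeR adjusted p = 1.45e-05). It ran from 1.11 to 2.12 CPM on chow and from 0.439 to 1.01 CPM in the fast, without overlap. In these 4 lists, 0 genes passed in any of the 16 h comparisons, where 0% of all genes did against chow and 0.219% for fasting against HFD.

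Members were also compared across mice of one diet. For the 6 co-chaperone and target genes Fkbp5, Tsc22d3, Sgk1, Zbtb16, Errfi1 and Hif3a, 135 relations were computed within the 5 groups: between pairs of these genes, with body weight change and with the clock time of euthanasia. One passed at an adjusted p under 0.05, Fkbp5 with Errfi1 in the 24 h fasted mice (Pearson's r = 0.954, permutation p = 4.00e-05, adjusted p = 0.00540, n = 10). Spearman's rho was 0.903 (permutation p = 0.000900, adjusted p = 0.108), and r was 0.910 without the 2 mice farthest from the median of Fkbp5. In the same mice, Fkbp5 with Zbtb16 had r = 0.854 and rho = 0.867, and Zbtb16 with Errfi1 had r = 0.859 and rho = 0.867 (adjusted permutation p = 0.0747 for both r). Over the 15 pairs of these mice r ran from 0.12 to 0.95 with a median of 0.57, and on 24 h chow from -0.79 to 0.77 with a median of 0.34. With equal weight for each column, Fkbp5 with Errfi1 passed again in the 24 h fasted mice (r = 0.925, adjusted permutation p = 0.0189). There r was 0.874 for Fkbp5 with Zbtb16 and 0.718 for Zbtb16 with Errfi1. For Fkbp5 with Hif3a it was 0.787 in the sums and 0.202 with equal weight.

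In the 16 h fasted mice, Sgk1 was higher the later the mouse was euthanized (r = 0.994, permutation p = 0.00278, adjusted p = 0.0938, rho = 0.943 with permutation p = 0.0167, n = 6), and r was 0.989 without the 2 mice farthest from the median time. In the other groups r of Sgk1 with clock time was 0.818 on 16 h chow, -0.136 on 16 h HFD, 0.301 on 24 h chow and 0.0659 in the 24 h fast. Hif3a was higher in mice that had lost more weight (r = -0.888, permutation p = 0.00694, adjusted p = 0.156, rho = -0.829 with permutation p = 0.0583, n = 6). Mice 11 and 12 changed by -7.52% and -6.49% in weight and formed a cluster of their own, and r fell to -0.529 without the 2 mice farthest from the median, so this relation rests on them. In the other groups r of Hif3a with weight change was -0.479 on 16 h chow, 0.293 on 16 h HFD, -0.602 on 24 h chow (mouse 1423 included) and -0.210 in the 24 h fast. In the 16 h fasted mice, Hif3a with clock time had r = 0.851 (permutation p = 0.0417, adjusted p = 0.402), and 0.960 without the 2 mice farthest from the median time. Sgk1 with weight change had r = -0.816 there (permutation p = 0.0875, adjusted p = 0.458), and -0.297 without the 2 mice farthest in weight change. None of these relations passed after adjustment. The permutations at 16 h shuffled mice and not cages, so their p-values do not allow for shared cages. Cage mates were euthanized one after the other, and mice 11 and 12 were the last fasted mice. Weight change, cage, clock time and the hour of the start thus cannot be told apart. The frontal cortex samples of mice 11 and 12 were from the right hemisphere, and the part of hemisphere was not tested. With clock time as a covariate, the log2 fold change of fasting against chow at 16 h was 0.83 ± 0.20 for Hif3a and 0.44 ± 0.11 for Sgk1 (SE, edgeR adjusted p = 0.621 for both).

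**Figure D5:**
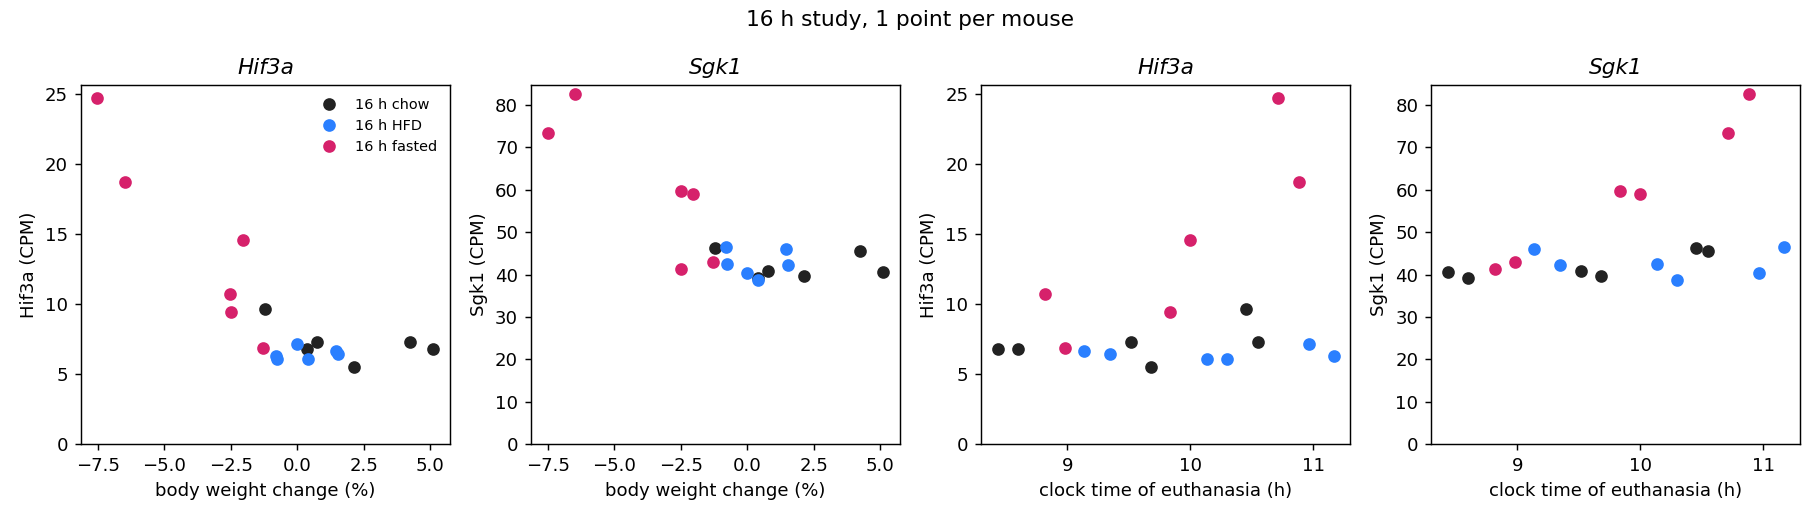
Hif3a and Sgk1 of the 16 h mice, in CPM, against body weight change in percent (left pair) and clock time of euthanasia in hours (right pair), with 1 point per mouse coloured by diet. The fasted mice with the greatest weight loss (changes of -7.52% and -6.49%) have the highest Hif3a, 24.7 and 18.7 CPM, and are the last fasted mice euthanized.

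The genes most alike to 3 members were ranked over 37 mice among 19055 genes with a mean of at least 1 CPM, by Pearson's r of log2 CPM after the group means were removed. This is a description across mice that also share depth and the mix of regions. For Fkbp5 the nearest genes outside the group were Smim3 (r = 0.783), Agfg2 (0.770), Gm49838 (0.751), Setdb2 (0.749) and Spns2 (0.724). Among the members, Errfi1 stood at rank 1 for Fkbp5 (r = 0.817) and Zbtb16 at rank 4 (0.752), whereas Nr3c1 had r = -0.706 and stood at rank 19052. For Nr3c1 the nearest were Lrrtm2 (0.837), Lrrc3 (0.818), Ldlrad3 (0.808), Klf7 (0.787) and Mgat5 (0.782). For Nr3c2 they were Sipa1l3 (0.968), Cyp7b1 (0.968), Gm34567 (0.964), Orai2 (0.959) and Or13a18 (0.959).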

How the data were processed

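The authors mapped paired reads of ribosome-depleted, strand-specific libraries to GRCm39 with STAR (2.7.3a, GeneCounts) after bcl2fastq (2.20.0), and deposited the raw counts per Ensembl gene, with no normalization. The annotation release and strand column are not given in the sources used here. Without a stated strand column, overlapping and antisense genes cannot be told apart. Sums over 5 columns per mouse were made because each heading names a sample of a mouse and is shared by 5 columns, read as its libraries. Which column holds which region is not given, so no test by region was run. All columns were kept, the 8 under 1000000 counts, those of the separate run and those of other libraries not labelled ok included.

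Sums were filtered with filterByExpr, scaled by TMM and tested by quasi-likelihood (glmQLFit, glmQLFTest) in edgeR 4.0.16 under R 4.3.3, with a Benjamini-Hochberg adjusted p under 0.05. The 16 h diets shared 1 fit. Ratios of counts used two-sided exact permutation tests, and correlations used permutation tests, exact for 6 and 9 mice and with 100000 resamples for 10, on log2 CPM, in Python 3.11.15 with scipy 1.17.1. Alternatives used DESeq2 1.42.0, limma 3.58.1 (mean log2 CPM of the columns, prior count 2), other scaling, filters, columns, clock time, run, cage sums and left-out mice. Likeness between genes used log2(CPM + 2). Motif windows came from GRCm39 with GENCODE gene starts. Symbols matched 56284 of 57010 identifiers. Exon lengths are of merged exons.

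The 10 members, the lists and the limit of 16000 genes were chosen with earlier results of these data known. Named are all members, up to 3 genes per list and direction with the largest change, and the 5 genes most alike to each of Fkbp5, Nr3c1 and Nr3c2. Totals of counts limit precision most in Hif3a and Hsd11b1, with at least 290 and 465 counts in a mouse, and intervals cover the spread between mice. The reads carry no molecular identifiers.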

Additional observations from a re-analysis of the deposited data

Results flagged for a closer look

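Among 50 sets of values (10 members in 5 groups), 3 held a mouse far from the others of its group, where chance gives about 1 set in 20. Fkbp5 of mouse 5 on 16 h chow was 40.1 CPM, and the next highest was 29.5. Sgk1 of mouse 1423 on 24 h chow was 71.0 CPM, and the next was 48.0. Hif3a of the same mouse was 17.3 CPM, and the next was 6.44. One of the 5 columns of mouse 1423 held 40.0 CPM of Hif3a and 151 CPM of Sgk1.

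The fasting effect differed between the 24 h and the 16 h study in 5 members, by a test of the difference in edgeR. The log2 difference was 1.47 for Fkbp5, 1.83 for Sgk1, 1.06 for Zbtb16, 1.10 for Errfi1 and 1.33 for Hif3a. Duration, housing, hemisphere, the hour of the start, 1 region and the sequencing runs change together between the studies. At 24 h, runs also differ within the study.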

How the results depend on the processing

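At 24 h, Fkbp5, Tsc22d3, Sgk1, Zbtb16, Errfi1 and Hif3a kept their direction and passed in 10 of 10 alternatives and in 19 of 19 fits without 1 mouse, while Nr3c1 passed in 4 and 6 of these. Leaving out 1 mouse gave 2685 to 3725 genes and 6 to 7 members called at 24 h, and 0 to 101 genes and 0 to 1 member for fasting against HFD. Genes called at 24 h were 1403 with limma and equal weight per column, against 3307. Total counts alone gave 946 higher and 1848 lower genes at 24 h, against 1676 and 1631, and shifted the median log2 fold change from -0.00440 to -0.0577. For fasting against HFD they gave 35 higher and 9 lower, against 42 and 23. DESeq2 called 19 genes and 1 member for fasting against chow at 16 h and 5 genes for HFD against chow. For fasting against HFD, where 65 genes were called, the counts were 26 with no filter, 356 with DESeq2, 133 with limma, 142 with clock time and 0 with cage sums, and 0 members with total counts only, no filter and cage sums.

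Directions that turned belonged to members that did not pass. Hsd11b1 at 24 h was 0.0105 with DESeq2 size factors, 0.00261 with no filter, 0.00336 with columns of at least 1000000 counts, 0.0104 with DESeq2 and 0.0294 with clock time. Errfi1 for fasting at 16 h was -0.00591 with limma. For HFD against chow, Nr3c1 was -0.0275 with total counts only and -0.0289 with limma, and Sgk1 was -0.0532 with clock time. For fasting against HFD, Fkbp5 was -0.00194 with no filter and -0.00855 with cage sums, and Zbtb16 was 0.0516 with limma. Fkbp4 in the difference between studies was -0.0433 with total counts only and -0.0530 with columns of at least 16000 genes. The log2 ratio of Nr3c1 to Nr3c2 for fasting against HFD was -0.0305 (mice or cage means), and that of Fkbp5 to Fkbp4 for fasting against chow at 16 h passed at 0.427, all with equal weight per column. Without 1 mouse, log2 fold changes ran from -0.116 to 0.106 for Nr3c2 and from -0.0625 to 0.0585 for Hsd11b1 at 24 h, and from -0.0233 to 0.0409 for Errfi1 in the 16 h fast. For HFD they ran from -0.0272 to 0.0246 for Nr3c1, -0.121 to 0.0316 for Hsd11b1 and -0.0505 to 0.00734 for Tsc22d3, and for fasting against HFD from -0.352 to 0.0216 for Nr3c2 and -0.110 to 0.0770 for Fkbp5. The cause of these changes was not tested. The columns with at least 16000 genes, the separate run as a covariate, the ratios without mice 1423 and 1454 and the ratios by cage were added after the data had been seen. No paired analysis was possible because the mice of different diets share no replicate number.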
